A study of Mus musculus with 8 samples.

Results

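The 34 genes described here encode proteins of the intestinal epithelium, the cell layer that lines the gut, and they were read in libraries of sorted immune cells. They were taken from the 27179 genes of the deposited table by name. All 34 were found, by symbol without regard to case and by Entrez Gene identifier. In order of role they are 13 genes of cell junctions, adhesion and the cytoskeleton, 3 transcription factors, 7 enterocyte genes, 5 goblet cell genes, 4 antimicrobial genes of Paneth and absorptive cells, 1 hormone and 1 stem cell gene.

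The intestinal epithelium is renewed from crypt stem cells, whose progeny become absorptive enterocytes or secretory cells. Goblet cells make mucus, Paneth cells make antimicrobial proteins at the crypt base, and enteroendocrine cells make hormones. The transcription factors Cdx1 and Cdx2 are known for setting intestinal identity in this layer. Lymphoid tissue inducer (LTi) cells, which start the formation of lymphoid organs, are innate lymphoid cells and lie beneath it.

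The 8 libraries came from LTi cells of C57BL/6 mice, sorted as live, lineage-negative, CD127+ and CCR6+ cells lacking KLRG1, NK1.1 and NKp46. There were 4 groups of 2 libraries each: lamina propria of the small intestine (LP) from Tcf7fl/fl mice with Cre, LP from Tcf7+/+ mice, Peyer's patches (PP, the lymphoid follicles of the gut wall) from Tcf7fl/fl mice with Cre, and PP from Tcf7+/+ mice. Tcf7 encodes the transcription factor TCF-1, and its floxed allele is cut by Cre. The submitters' titles call the floxed groups knockout (KO) and the others control, here wild type (WT). The labels read here give neither ages and sexes nor the number of animals behind a library, so every p-value measures the spread between these libraries, which may be technical.

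Tcf7 stood at 236.7 and 214.8 RPKM (reads per gene, scaled to gene length and library depth) in the 2 LP libraries labelled KO, against 229 and 246.4 RPKM in WT LP. It stood at 355.5 and 337.1 RPKM in PP labelled KO, against 242.5 and 85.4 RPKM in WT PP. No difference passed the test: the log2 fold change, labelled KO over WT, was -0.07 ± 0.48 in LP (SE, limma adjusted p = 1) and 1.26 ± 0.48 in PP (limma adjusted p = 0.365). A value for the whole gene does not separate the deleted part from the rest, so genotype rests on the labels in all that follows.

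The estimated depth was 38.2 to 44.0 M reads per library. The 14 LTi and ILC3 defining genes were present throughout: 13 or 14 of them reached 5 RPKM in every library, and they summed to 4206 to 7497 RPKM, led by Ltb, Id2 and Rora. The number of genes detected at 1 RPKM was 7437 and 7843 in LP labelled KO, 8192 and 8433 in WT LP, 8103 and 8039 in PP labelled KO, and 6411 and 6365 in WT PP. The 11 plasma and B cell genes summed to 24799 and 24594 RPKM in LP labelled KO, 24000 and 38085 in WT LP, 7164 and 6868 in PP labelled KO, and 13522 and 13467 in WT PP, and none of the 11 was under 1 RPKM in all libraries. The share of mitochondrially encoded genes in the RPKM sum was 13.4% and 13.6% in PP labelled KO and 3.06% to 5.06% in the other 6 libraries. These values and the number of genes detected differ between the groups compared below, and their part in the results was not tested.

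Every library held transcripts of the 34 genes, and on the deposited scale their sum was lowest in the WT PP libraries. This order changed in part under a rescaling given below. The 34 genes summed to 1218 and 1582 RPKM in the LP libraries labelled KO (replicates 1 and 2, in this order throughout), and to 430.1 and 1949 RPKM in WT LP. They summed to 1228 and 1233 RPKM in PP labelled KO, and to 384.9 and 198.8 RPKM in WT PP. WT LP replicate 2 held the most, and the 2 WT LP libraries lay further apart than those of any other group. As a share of all summed RPKM these are 0.229% and 0.293% in LP labelled KO, 0.0801% and 0.343% in WT LP, 0.219% and 0.221% in PP labelled KO, and 0.0685% and 0.0350% in WT PP. In such bulk samples, the number of cells that hold these transcripts and their RNA per cell cannot be told apart. Which cells the transcripts came from was not tested.

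At 5 RPKM or more stood 18 and 23 of the 34 genes in LP labelled KO, 16 and 24 in WT LP, 19 and 20 in PP labelled KO, and 7 and 4 in WT PP. The sums rested on few genes: the 3 highest made up 62.0% and 48.2% of the sum in LP labelled KO, 43.0% and 51.5% in WT LP, 33.7% and 45.4% in PP labelled KO, and 68.7% and 79.7% in WT PP. The single highest gene was the goblet cell peptide gene Tff3 in both LP libraries labelled KO and in WT LP replicate 2. It was Lgals2 in WT LP replicate 1, the hormone gene Gip in PP replicate 1 labelled KO, Fabp2 in replicate 2, Fabp1 in WT PP replicate 1 and the keratin gene Krt18 in WT PP replicate 2.

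**Figure D1:**
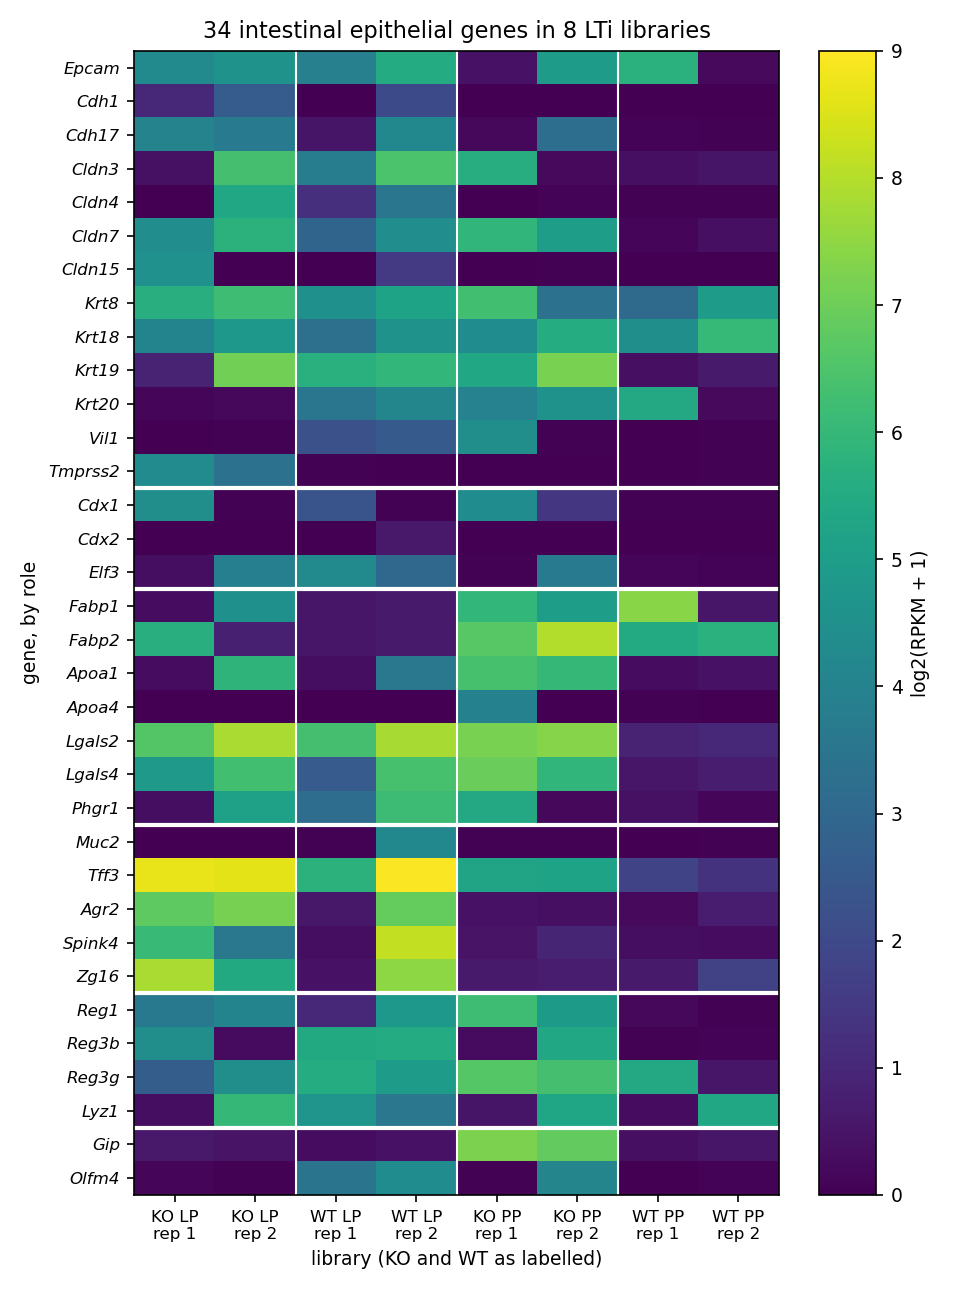
Level of each of the 34 genes (rows, grouped by role) in each of the 8 libraries (columns), as log2(RPKM + 1). Most genes are either high or near 0 in a library, with few values between, and the 2 WT PP columns hold 7 and 4 genes at 5 RPKM or more.

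A gene of the group was mostly either well present or nearly missing in a library. Of the 272 values (34 genes in 8 libraries), 131 (48.2%) were at 5 RPKM or more, 12 (4.41%) lay from 1 up to 5 RPKM and 129 (47.4%) were under 1 RPKM. Of the 129, 13 were listed at 0. Over the 10541 genes that reached 1 RPKM in 2 or more libraries, called the genes kept below, the corresponding shares were 58.6%, 11.0% and 30.4%. Only Krt8 and Krt18 reached 5 RPKM in all 8 libraries and Reg3g in 7, while 5 genes did so in 1 library and Cdx2 in none. Among the genes kept, 22.05% reached it in all 8.

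The 2 libraries of a group shared part of the epithelial genes they held, as they did of the genes kept. In LP labelled KO, 14 of the 27 genes that reached 5 RPKM in either library did so in both (51.9%, against 60.4% of the genes kept). In WT LP it was 16 of 24 (66.7%, against 66.1%), in PP labelled KO 14 of 25 (56%, against 63.6%), and in WT PP 3 of 8 (37.5%, against 53.5%). The 3 genes shared by the WT PP libraries were Krt8, Krt18 and Fabp2.

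Goblet cell genes made up most of the signal in 2 of the 4 LP libraries and little of it in PP. The 5 genes summed to 821 and 586 RPKM in LP labelled KO, 55.9 and 1088 RPKM in WT LP, 38.7 and 38.3 RPKM in PP labelled KO, and 3.59 and 4.73 RPKM in WT PP. That is 67.4% and 37.0% of the epithelial sum in LP labelled KO, 13% and 55.8% in WT LP, 3.15% and 3.11% in PP labelled KO, and 0.932% and 2.38% in WT PP. WT LP replicate 1 was closer in this sum to the PP libraries labelled KO than to the other 3 LP libraries.

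Tff3, which encodes a small peptide secreted with mucus (chromosome 17, 31125306 to 31129611 on GRCm38, the build of all coordinates here), stood at 416 and 391 RPKM in LP labelled KO and 54.7 and 493 RPKM in WT LP. It stood at 37.4 and 36.4 RPKM in PP labelled KO and 2.58 and 1.47 RPKM in WT PP. Its lowest LP library was above its highest PP library, and within PP the 2 genotypes did not overlap.

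Agr2, whose product helps fold mucins in the endoplasmic reticulum, stood at 107 and 141 RPKM in LP labelled KO, 0.513 and 116 in WT LP, 0.3403 and 0.294 in PP labelled KO and 0.169 and 0.652 in WT PP. Spink4, a secreted goblet cell protein related to protease inhibitors, stood at 66.2 and 11.1 RPKM in LP labelled KO, 0.265 and 285 in WT LP, 0.395 and 0.886 in PP labelled KO and 0.261 and 0.229 in WT PP. Zg16, a lectin of the mucus layer, stood at 232 and 42.9 RPKM in LP labelled KO, 0.368 and 177 in WT LP, 0.569 and 0.664 in PP labelled KO and 0.565 and 2.34 in WT PP. These 3 genes lie on chromosomes 12, 4 and 7, and they were high in the same 3 libraries, both LP libraries labelled KO and WT LP replicate 2. Muc2, the main secreted mucin of the intestine, was not among what those 3 libraries shared. It stood at 17.6 RPKM in WT LP replicate 2, or about 4875 reads, and at 4.85 to 12.1 estimated reads in the other 7 libraries.

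**Figure D2:**
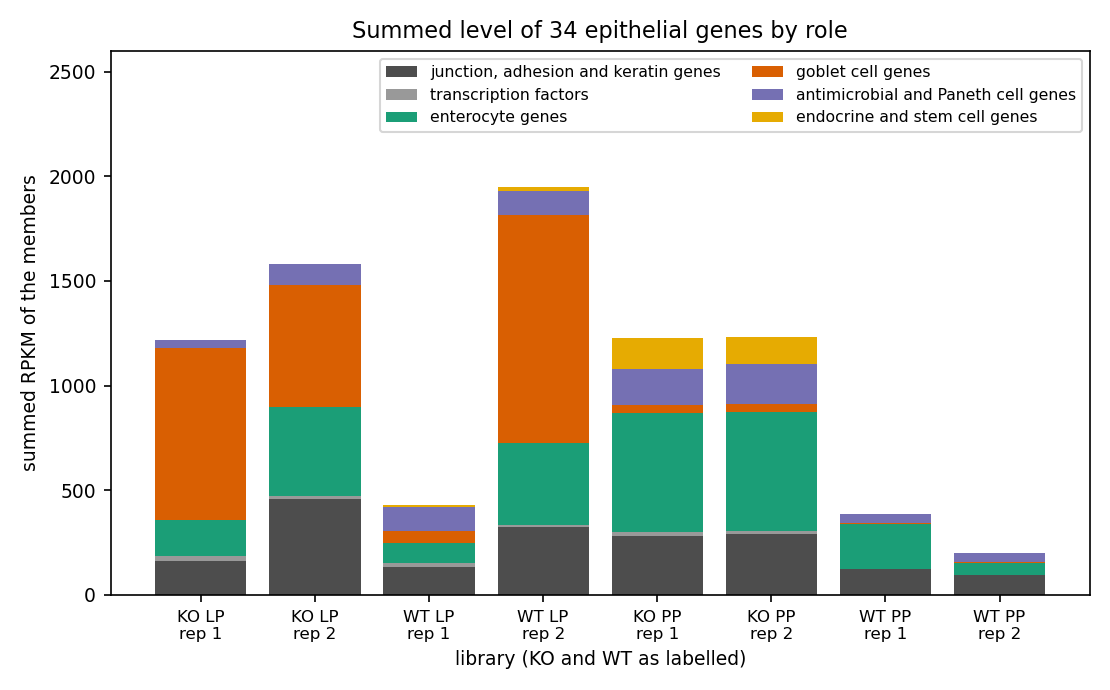
Summed RPKM of the 34 genes in each library, split by role, with the 8 libraries along the axis. Goblet cell genes fill 821, 586 and 1088 RPKM of the bars of both LP libraries labelled KO and of WT LP replicate 2, and enterocyte genes 568 and 570.4 RPKM of the bars of PP labelled KO.

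Enterocyte genes were the role with the highest sum in the PP libraries labelled KO, where the 7 genes summed to 568 and 570.4 RPKM. They summed to 174 and 422 RPKM in LP labelled KO, 94.1 and 393 RPKM in WT LP, and 214 and 55.1 RPKM in WT PP. Within this role the genes did not follow one pattern.

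The galectin genes Lgals2 and Lgals4 encode sugar-binding proteins of the epithelium. Lgals2 (chromosome 15, 78850860 to 78855529) stood at 95.2 and 231 RPKM in LP labelled KO, 79.5 and 226 in WT LP, 144 and 166 in PP labelled KO and 0.867 and 1.06 in WT PP. It was thus high in 6 libraries and at 19.8 and 27.8 estimated reads in the WT PP libraries. Lgals4 stood at 27.9 and 76.2 RPKM in LP labelled KO, 5.02 and 83.1 in WT LP, 121 and 60.3 in PP labelled KO and 0.463 and 0.594 in WT PP, with the same WT PP libraries lowest.

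The fatty acid binding proteins of the enterocyte, Fabp1 and Fabp2, had another pattern. Fabp2 stood at 50.3 and 0.749 RPKM in LP labelled KO and 0.443 and 0.554 RPKM in WT LP, but at 101 and 249.9 RPKM in PP labelled KO and 44.7 and 52.5 RPKM in WT PP. It was therefore high in all 4 PP libraries and in 1 of 4 LP libraries. Fabp1 stood at 0.241 and 21.97 RPKM in LP labelled KO, 0.476 and 0.5704 in WT LP, 61.97 and 31.1 in PP labelled KO and 167 and 0.458 in WT PP.

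Apoa1, the main protein of high-density lipoprotein, stood at 0.217 and 57.4 RPKM in LP labelled KO, 0.264 and 11.3 in WT LP, 83.01 and 63.3 in PP labelled KO and 0.234 and 0.343 in WT PP. Apoa4, which lies 10.4 kb from it on chromosome 9 and encodes a chylomicron protein, reached 14.6 RPKM in PP replicate 1 labelled KO and at most 0.0309 RPKM elsewhere. Phgr1, a gene of the mature epithelium, stood at 0.263 and 34.5 RPKM in LP labelled KO, 8.36 and 71.3 in WT LP, 42.4 and 0.138 in PP labelled KO and 0.332 and 0.125 in WT PP. The 7 enterocyte genes were all at 5 RPKM or more in 1 library only, PP replicate 1 labelled KO.

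The incretin hormone gene Gip (chromosome 11, 96024532 to 96030831), made by enteroendocrine K cells, was high in 1 group. It stood at 0.549 and 0.392 RPKM in LP labelled KO, 0.2404 and 0.354 in WT LP, 148 and 114 in PP labelled KO and 0.277 and 0.451 in WT PP. In estimated reads this is 3914 and 3134 in PP labelled KO and 6.31 to 15.8 in the other 6 libraries. None of the 16 other enteroendocrine genes reached 5 RPKM in PP labelled KO. In LP replicate 2 labelled KO, where Gip was at 0.392 RPKM, 5 of them did, led by the secretin gene Sct at 428 RPKM and the granule protein gene Chgb at 305 RPKM. The cholecystokinin gene Cck reached 32.2 RPKM in WT LP replicate 2, and 0 of the 3 of these 16 genes that were tested passed in any of the 5 comparisons described below. Olfm4, a gene of crypt stem cells, stood at 0.08697 and 0.0311 RPKM in LP labelled KO, 9.89 and 19.8 in WT LP, 0.0316 and 15.9 in PP labelled KO and 0 and 0.05496 in WT PP, while the stem cell receptor gene Lgr5 was listed at 0 in all 8 libraries.

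Antimicrobial genes were spread over both tissues, with 4-gene sums of 37.9 and 99.6 RPKM in LP labelled KO, 116 and 114 in WT LP, 172 and 189 in PP labelled KO, and 42.9 and 41.8 in WT PP. Reg3b and Reg3g encode lectins that act on bacteria. Reg3g stood at 5.37 and 20.99 RPKM in LP labelled KO, 46.5 and 30.3 in WT LP, 98.8 and 79.9 in PP labelled KO and 42.5 and 0.465 in WT PP. Reg3b stood at 20.9 and 0.201 RPKM in LP labelled KO, 43.1 and 45.8 in WT LP, 0.204 and 40.7 in PP labelled KO and 0.0339 and 0.0594 in WT PP. Both were lower in LP labelled KO than in WT LP and higher in PP labelled KO than in WT PP, in both libraries each time. How many of all genes show such a pattern was not counted, so these genes cannot be set apart by it.

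Reg1, of the same family and cluster on chromosome 6, stood at 11.4 and 15.8 RPKM in LP labelled KO, 0.981 and 26.7 in WT LP, 72.5 and 28.8 in PP labelled KO and 0.133 and 0.0293 in WT PP. Lyz1, the lysozyme of Paneth cells, stood at 0.263 and 62.5 RPKM in LP labelled KO, 25.2 and 10.8 in WT LP, 0.429 and 39.2 in PP labelled KO and 0.223 and 41.3 in WT PP, and so was high in 1 library of each group except WT LP, where both were.

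Among the 13 structural genes, only the keratin pair Krt8 and Krt18 was present throughout. These genes encode the partner filaments of simple epithelia and lie 23.9 kb apart on chromosome 15. Krt18 stood at 15.8 and 26.5 RPKM in LP labelled KO, 9.12 and 23.03 in WT LP, 20 and 46.6 in PP labelled KO and 21.3 and 64.7 in WT PP. Krt8 stood at 49.3 and 73.4 RPKM in LP labelled KO, 22.1 and 36.3 in WT LP, 77.2 and 9.17 in PP labelled KO and 7.64 and 30.1 in WT PP. For Krt18 the groups overlapped in each of the 4 comparisons of 2 groups. For Krt8 both LP libraries labelled KO were above both WT LP libraries, and the groups overlapped in the other 3.

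The other keratins were either high or low. Krt19 stood at 0.864 and 136 RPKM in LP labelled KO, 50.9 and 60.7 in WT LP, 40.7 and 144 in PP labelled KO and 0.2799 and 0.557 in WT PP. Krt20, a keratin of differentiated villus cells, stood at 0.123 and 0.145 RPKM in LP labelled KO, 10.6 and 16.6 in WT LP, 14.8 and 22.8 in PP labelled KO and 42.1 and 0.163 in WT PP. Krt19 was low in both WT PP libraries, and Krt20 in both LP libraries labelled KO.

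Epcam, the surface adhesion molecule by which epithelial cells are usually recognised, stood at 18.4 and 23.8 RPKM in LP labelled KO, 14.02 and 45.5 in WT LP, 0.364 and 29.4 in PP labelled KO and 52.4 and 0.175 in WT PP. It was high in 6 libraries and low in 1 library of each PP group. Cldn7, a tight junction protein, stood at 20.3 and 54.2 RPKM in LP labelled KO, 6.53 and 20.1 in WT LP, 59.6 and 31.5 in PP labelled KO and 0.124 and 0.279 in WT PP. The claudin genes Cldn3 and Cldn4 lie 39.3 kb apart on chromosome 5 and ranged over the libraries from 0.177 to 86.2 RPKM and from 0 to 39.9 RPKM. Both reached 5 RPKM in 2 libraries, 1 of them alone in 2 more and neither in 4.

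The cadherin genes Cdh1 and Cdh17 reached at most 5.08 and 17.4 RPKM. Cdh17 stood at 15.1 and 11.7 RPKM in LP labelled KO, 0.436 and 17.4 in WT LP, 0.149 and 8.54 in PP labelled KO and 0.0519 and 0.0261 in WT PP. Vil1, the actin bundler of the brush border, exceeded 5 RPKM in PP replicate 1 labelled KO alone (20.9 RPKM). Cldn15, a claudin of cation pores, did so in LP replicate 1 labelled KO alone (22.4 RPKM). Tmprss2, a membrane serine protease, stood at 19.3 and 9.29 RPKM in LP labelled KO and at no more than 0.0412 RPKM in the other 6 libraries.

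Of the transcription factors, Cdx1 stood at 20.8 and 0.0291 RPKM in LP labelled KO, 4.01 and 0.0438 in WT LP, 19.98 and 1.68 in PP labelled KO and 0.0294 and 0.0387 in WT PP. Elf3, a factor of epithelial differentiation, stood at 0.261 and 13.9 RPKM in LP labelled KO, 18.3 and 7.16 in WT LP, 0.0389 and 11.7 in PP labelled KO and 0.0898 and 0.0676 in WT PP. Cdx2 stayed under 1 RPKM everywhere, with 0.547 RPKM in WT LP replicate 2 and a listed 0 in 5 libraries.

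**Figure D3:**
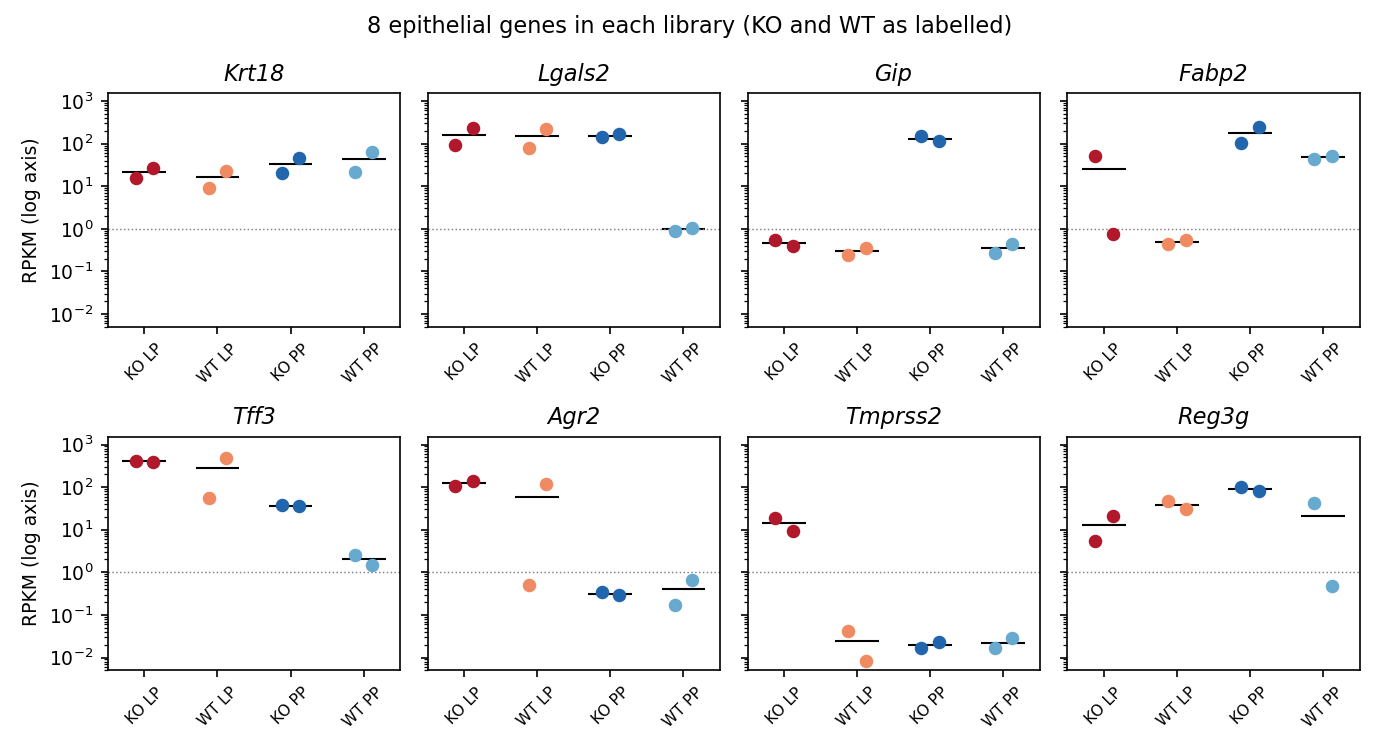
RPKM on a log axis of 8 of the genes in each library, by group, with lines at the group means and a dotted line at 1 RPKM. Gip is above 100 RPKM in both PP libraries labelled KO and under 1 RPKM in the other 6, and Lgals2 is near 1 RPKM in the 2 WT PP libraries alone.

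CDX proteins bind A- and T-rich sites, and the promoters of 3 genes with unlike patterns are shown for their letters. They belong to Lgals2 (low in WT PP alone), Agr2 (high in 3 LP libraries) and Gip (high in PP labelled KO alone). Each is the 250 bases before the start used in the RefSeq promoter table of GRCm38.p6 (for Gip this start lies slightly inside the gene span given above), 5′ to 3′ in the direction of the gene, at chr15:78855530-78855779 (minus strand) for Lgals2, chr12:35992675-35992924 (plus strand) for Agr2 and chr11:96024295-96024544 (plus strand) for Gip. Capitals mark TTTAT or ATAAA, the core letters of a CDX site read on either strand.

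Lgals2: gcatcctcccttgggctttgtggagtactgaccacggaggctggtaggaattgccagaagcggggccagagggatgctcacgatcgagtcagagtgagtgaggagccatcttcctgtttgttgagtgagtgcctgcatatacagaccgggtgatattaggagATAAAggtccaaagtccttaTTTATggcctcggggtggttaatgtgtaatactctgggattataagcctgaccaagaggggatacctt

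Agr2: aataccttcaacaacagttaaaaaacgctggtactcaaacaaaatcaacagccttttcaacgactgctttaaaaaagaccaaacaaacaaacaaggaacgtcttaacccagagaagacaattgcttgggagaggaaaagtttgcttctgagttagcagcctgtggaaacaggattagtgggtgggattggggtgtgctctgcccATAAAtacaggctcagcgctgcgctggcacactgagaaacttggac

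Gip: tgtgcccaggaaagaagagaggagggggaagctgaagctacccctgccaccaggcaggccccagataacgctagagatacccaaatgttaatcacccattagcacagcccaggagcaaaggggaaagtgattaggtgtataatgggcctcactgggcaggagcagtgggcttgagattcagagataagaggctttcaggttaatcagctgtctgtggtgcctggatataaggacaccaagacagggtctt

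These letters occurred 2 times in the Lgals2 promoter, 1 time in that of Agr2 and 0 times in that of Gip. Of the 34 genes, 27 had a promoter in the RefSeq table. The letters were in at least 1 promoter of 13 of these genes (48.1%), against 11109 of all 27025 genes with a promoter there (41.1%). They overlap the letters TATAAA of a TATA box. A match is a description of the letters and shows no binding.

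Genotypes were first compared in PP, to see how transcripts in libraries of sorted LTi cells differ between Tcf7 genotypes as labelled. Of the 34 genes, 31 passed the filter on low values and were tested (Cdx2, Apoa4 and Muc2 did not). In PP, 1 of the 31 passed a limma adjusted p of 0.05 over all genes kept, against 0.36% of those genes in either direction and 0.266% upward. This was Lgals2, which averaged 155 ± 15.5 RPKM in PP labelled KO and 0.966 ± 0.1401 RPKM in WT PP (SD, n = 2 each), a difference of 6.31 ± 0.70 on the log2(RPKM + 1) scale (SE, limma adjusted p = 0.0219). The scale adds 1 to every value and so understates the change of low genes. Leaving out any 1 of the 8 libraries ended the call, with limma adjusted p from 0.0502 to 0.232 and differences from 6.20 to 6.41.

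The next genes by p did not pass in PP. Gip averaged 131 ± 24.2 RPKM in PP labelled KO and 0.364 ± 0.123 RPKM in WT PP (log2 difference 6.59 ± 0.97, limma adjusted p = 0.0616). Cldn7 averaged 45.6 ± 19.9 RPKM in PP labelled KO and 0.201 ± 0.1098 RPKM in WT PP (5.21 ± 1.0, limma adjusted p = 0.0904). Lgals4 averaged 90.7 ± 43.04 RPKM in PP labelled KO and 0.529 ± 0.0926 RPKM in WT PP (5.82 ± 1.30, limma adjusted p = 0.134). Reg1 averaged 50.7 ± 30.9 RPKM in PP labelled KO and 0.0814 ± 0.0736 RPKM in WT PP (5.44 ± 1.41, limma adjusted p = 0.186).

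Counted by level, 8 of the 34 genes stood at 5 RPKM or more in both PP libraries labelled KO and under 5 RPKM in both WT PP libraries, against 6.49% of the genes kept. They were Cldn7, Krt19, Apoa1, Lgals2, Lgals4, Tff3, Reg1 and Gip. The opposite pattern was seen in 0 of 34, against 1.89% of the genes kept. The 8 genes come from 5 of the 6 roles. WT PP also had the fewest genes of any kind at 1 RPKM or more, and whether that bears on these counts was not tested.

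The same comparison in LP found 0 of the 31 genes past a limma adjusted p of 0.05, against 0.0285% of the genes kept (3 genes). At an unadjusted p under 0.05 stood 2 of the 31, against 5.27% of the genes kept. Tmprss2 averaged 14.3 ± 7.08 RPKM in LP labelled KO and 0.0247 ± 0.0234 RPKM in WT LP (log2 difference 3.82 ± 0.70, limma adjusted p = 0.3). Olfm4 averaged 0.05902 ± 0.0395 RPKM in LP labelled KO and 14.9 ± 7.04 RPKM in WT LP (-3.83 ± 1.38, limma adjusted p = 0.785). Krt20 (-3.65 ± 1.70), Fabp2 (2.66 ± 1.51) and Vil1 (-2.34 ± 1.38) followed, each with a limma adjusted p of 1. The Fabp2 value was 0.22 without LP replicate 1 labelled KO and 5.10 without replicate 2. By level, 1 of 34 genes (Tmprss2) was at 5 RPKM or more in both LP libraries labelled KO and in neither of WT LP, against 1.98% of the genes kept. The opposite held for 2 of 34 (Krt20 and Olfm4), against 3.47%.

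Between tissues in WT mice, 2 of the 31 genes tested rose in LP and 0 fell. Of the genes kept, 2.13% passed in either direction and 1.34% upward. Lgals2 averaged 153 ± 103 RPKM in WT LP and 0.966 ± 0.1401 RPKM in WT PP, a log2 difference of 6.11 ± 0.70 (limma adjusted p = 0.0115). Tff3 averaged 274 ± 309.7 RPKM in WT LP and 2.03 ± 0.779 RPKM in WT PP (5.80 ± 0.97, limma adjusted p = 0.0376). The Lgals2 call was lost without WT LP replicate 1 (limma adjusted p = 0.0843) and without WT LP replicate 2 (0.137), and that of Tff3 when any 1 of the 8 libraries was left out (limma adjusted p from 0.0685 to 0.157, differences from 4.23 to 7.37).

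Cldn7 (3.40 ± 1.0, limma adjusted p = 0.150), Fabp2 (-5.05 ± 1.51, limma adjusted p = 0.154) and Lgals4 (3.88 ± 1.30, limma adjusted p = 0.195) did not pass. The Lgals4 value was 5.78 without WT LP replicate 1 and 1.98 without WT LP replicate 2. By level, 10 of 34 genes stood at 5 RPKM or more in both WT LP libraries and under 5 RPKM in both of WT PP, against 7.09% of the genes kept. They were Cldn3, Cldn7, Krt19, Elf3, Lgals2, Lgals4, Phgr1, Tff3, Reg3b and Olfm4. Fabp2 alone had the opposite pattern, 1 of 34 against 2.82% of the genes kept. This comparison and that of genotypes in PP share the WT PP libraries.

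**Figure D4:**
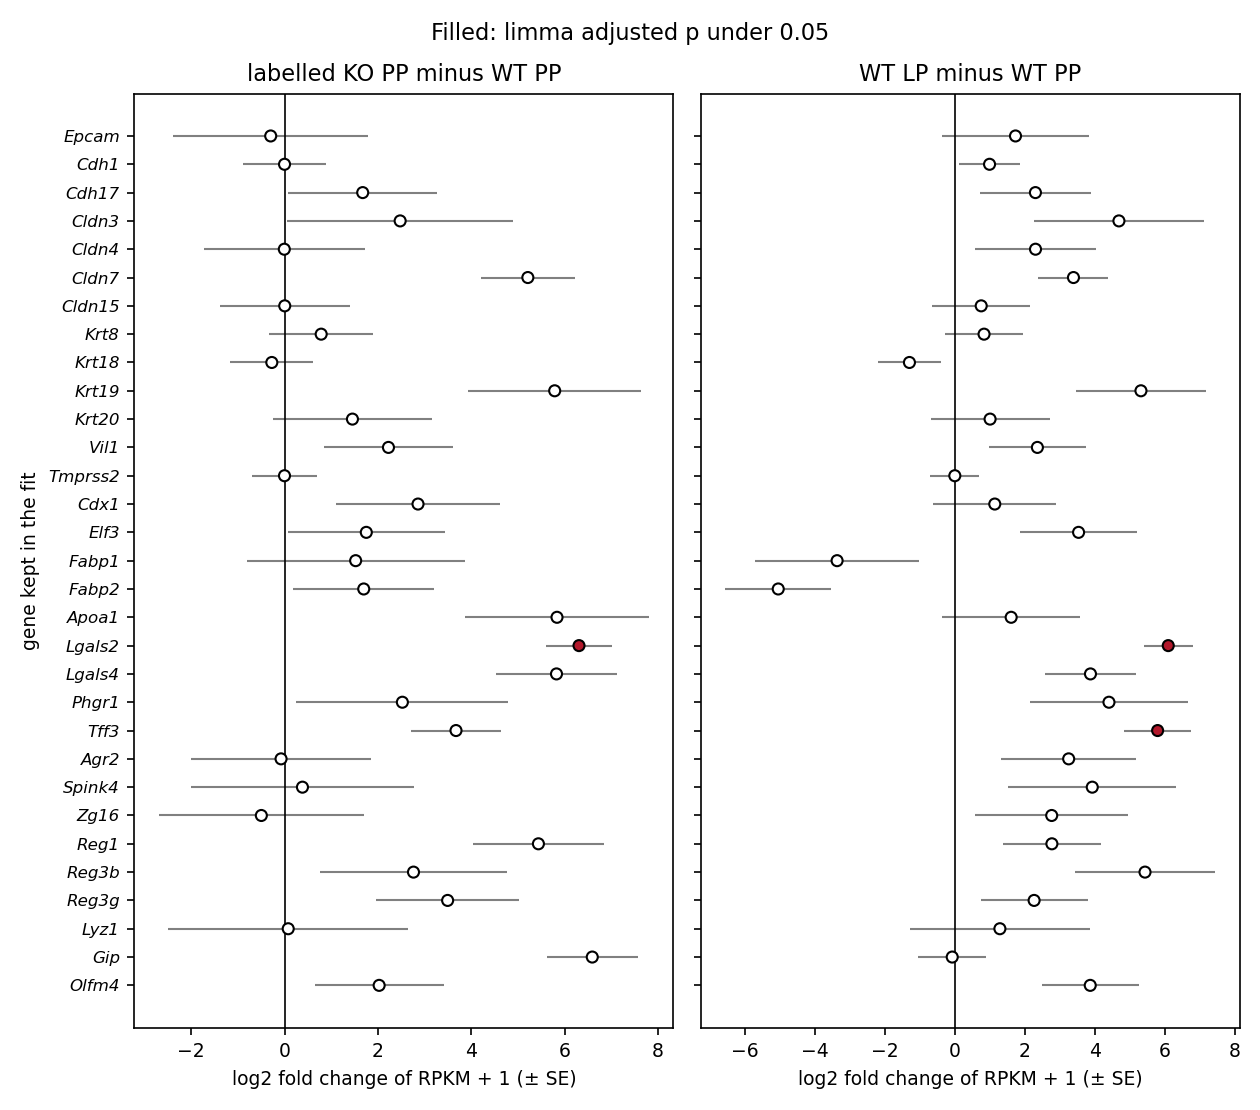
Log2 differences on the log2(RPKM + 1) scale, with SE bars, of the 31 tested genes for PP labelled KO minus WT PP and for WT LP minus WT PP, 2 comparisons that share the WT PP libraries. Lgals2 lies at 6.31 in PP labelled KO and 6.11 in WT LP, and Fabp2 lies at -5.05 in WT LP.

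Between tissues in the libraries labelled KO, 2 of the 31 genes passed, in opposite directions, against 2% of the genes kept. Both genes, Gip and Tmprss2, passed the filter on low values only through the group where they are high. This count is therefore not independent of the filter, and the same holds for their tests in the other comparisons. Gip fell in LP, averaging 0.4705 ± 0.111 RPKM in LP labelled KO and 131 ± 24.2 RPKM in PP labelled KO (log2 difference -6.48 ± 0.97, limma adjusted p = 0.0338). Tmprss2 rose, averaging 14.3 ± 7.08 RPKM in LP labelled KO and 0.02005 ± 0.00511 RPKM in PP labelled KO (3.82 ± 0.70, limma adjusted p = 0.0475). The Gip call was lost when any 1 of the 4 LP libraries was left out (limma adjusted p from 0.104 to 0.114), and that of Tmprss2 when leaving out any 1 of the 6 libraries whose removal left it testable (limma adjusted p from 0.0774 to 0.241). Each gene falls under the filter when a library of its high group is left out.

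Goblet cell genes came next in this comparison and did not pass: Tff3 (3.42 ± 0.97, limma adjusted p = 0.156), Agr2 (6.55 ± 1.93, limma adjusted p = 0.170) and Zg16 (5.97 ± 2.19, limma adjusted p = 0.265). By level, 4 of 34 genes (Tmprss2, Agr2, Spink4 and Zg16) stood at 5 RPKM or more in both LP libraries labelled KO and under 5 RPKM in both of PP, against 3.41% of the genes kept. Krt20 and Gip had the opposite pattern, 2 of 34 against 5.77%.

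Whether a genotype difference depended on the tissue was tested as an interaction, the difference in LP minus that in PP. It passed for 0 of the 31 genes by limma, against 0.0285% of the genes kept. At an unadjusted p under 0.05 stood 8 of the 31, against 8.75% of the genes kept. The smallest p were those of Lgals2 (-6.16 ± 1.0, limma adjusted p = 0.169), Gip (-6.41 ± 1.38, limma adjusted p = 0.309), Tmprss2 (3.82 ± 0.99, limma adjusted p = 0.322), Olfm4 (-5.86 ± 1.96, limma adjusted p = 0.424) and Krt19 (-7.61 ± 2.63, limma adjusted p = 0.440). The Olfm4 value was -7.87 without PP replicate 1 labelled KO and -3.84 without replicate 2. The Krt19 value was -4.51 without LP replicate 1 labelled KO and -10.71 without replicate 2.

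Genes of the same epithelial cell types outside the 34 differed in how far they were detected. Of 30 other enterocyte genes, 9 passed the filter. Most of their sum was Dgat1, a triglyceride synthesis enzyme found in many cell types, at 6290.3 and 3870.1 RPKM in LP labelled KO, 3332 and 3207 in WT LP, 332 and 429.6 in PP labelled KO and 82.5 and 320.3 in WT PP. Dgat1 rose in LP over PP in the libraries labelled KO (log2 difference 3.70 ± 0.58, limma adjusted p = 0.0359) and in WT (4.32 ± 0.58, limma adjusted p = 0.0182). The fructose kinase gene Khk fell in LP labelled KO, with 0.106 and 0 RPKM there and 24.3 and 56.7 RPKM in PP labelled KO (log2 difference -5.18 ± 0.86, limma adjusted p = 0.0375). Khk was under 1 RPKM in the other 6 libraries and so passed the filter only through the group where it is high. Fabp6, which encodes the ileal bile acid binding protein, stood at 5.59 and 0.46 RPKM in LP labelled KO, 6.58 and 71.1 in WT LP, 39.7 and 54.7 in PP labelled KO and 0.265 and 0.0582 in WT PP, and Prap1 reached 43.8 RPKM in WT LP replicate 2, 63.7 RPKM in PP replicate 1 labelled KO and at most 0.204 RPKM elsewhere.

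The 12 other goblet cell genes, of which 3 were tested, summed to 44.4 and 38.2 RPKM in LP labelled KO, 32.7 and 72.6 in WT LP, 10.7 and 35.3 in PP labelled KO, and 0.271 and 1.06 in WT PP. Galnt12, Fcgbp and Atoh1 were highest, at up to 35.2, 24.5 and 18.1 RPKM, and 0 of the 3 tested passed in any of the 5 comparisons. The 12 other Paneth cell genes summed to 136 and 592 RPKM in LP labelled KO, 288 and 154 in WT LP, 148 and 195 in PP labelled KO, and 604 and 431 in WT PP. The defensin gene Defa24 stood at 21.6 and 105 RPKM in PP labelled KO and 423 and 276 RPKM in WT PP, and Defa30 at 119.5 and 20.4 RPKM in PP labelled KO and 166 and 112 RPKM in WT PP. The lectin gene Itln1 reached 31.6 RPKM. Defensin genes are near-identical copies, so their separate values are uncertain, and 0 of the 6 tested passed.

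The 32 other pan-epithelial genes summed to 354 and 515 RPKM in LP labelled KO, 336 and 325 in WT LP, 410 and 361 in PP labelled KO, and 451 and 246 in WT PP, led by Ezr, Spint2 and Pkp3, with 0 of 17 passing. The 11 genes of follicle-associated epithelium and M cells summed to 446 and 515 RPKM in LP labelled KO, 479 and 413 in WT LP, 23.7 and 123 in PP labelled KO, and 130 and 106 in WT PP. That difference was mostly Marcksl1, the only 1 of the 7 tested to pass, which rose in LP over PP in the libraries labelled KO (4.21 ± 0.53, limma adjusted p = 0.0175) and in WT (3.15 ± 0.53, limma adjusted p = 0.0376). Clu and Cib2 of that list reached 41.3 and 39.3 RPKM. The 11 tuft cell genes summed to no more than 8.88 RPKM in any library and the 9 crypt stem and progenitor genes found in the table to no more than 35.0 RPKM, with 0 of 1 and 0 of 2 tested genes passing. Their highest genes were Ltc4s, Rgs13 and Avil of the tuft cell list and Rgmb, Axin2 and Sox9 of the crypt list, at 3.63 to 24.3 RPKM in the highest library of each.

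Markers of other cell types also differed between tissues. In LP over PP, the immunoglobulin gene Igha passed as higher in both genotypes, and Igkc and Jchain in the libraries labelled KO. Of the T cell and intraepithelial T cell lists, Trgc1 was lower in WT LP, and Cd8b1 was lower and Gzmb higher in LP labelled KO. Cd8b1 stood at 11.8 and 23.9 RPKM in PP labelled KO and at no more than 0.0795 RPKM elsewhere. It thus passed the filter only through the group where it is high. The B cell receptor gene Cd79b was lower in LP labelled KO. Of the LTi list, Ltb was lower in LP in both genotypes, Thy1 was lower in WT LP, and Tnfsf11 and Rora were higher in WT LP. These tissue calls, and those of Dgat1, Khk and Marcksl1 above, were lost when the fit used only the groups compared. Between genotypes, 0 genes of these lists passed in PP or LP by limma. The 10 stromal and endothelial genes summed to 28.1 to 205 RPKM over the 8 libraries, nearly all Pecam1 and Pdgfrb, and 5 of them were listed at 0 everywhere. The 10 myeloid genes summed to 0.305 to 99.9 RPKM, led by Cd14, Cd68 and Lyz2. The part of these cell types in the epithelial results was not tested.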

How the data were processed

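RNA of sorted LTi cells was sequenced in 8 libraries. Per the labels' protocols, extraction of total RNA used a miRNeasy Micro kit and library preparation used Smart-seq2. Per the submitters' processing notes, reads were assigned to genes with featureCounts of Subread on mm10, and versions, aligner, annotation and strand setting were not stated there. The authors deposited values that read as log2(RPKM + 1), with 0.0001 in place of 0. The base was checked on genes of few reads: undoing log2 gave whole reads within 0.1 for 100% of 146 values, against 7.27% of 110 for a natural log, 16.7% of 42 for no log and 25% of 8 for log10. Since the table holds no counts, the value of 1 read gave an estimate of depth. PCR copies were not removed by molecular identifiers, so reads are not independent molecules.

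RefSeq entries were found for 25275 of the 27179 Entrez Gene identifiers, on GRCm38.p6 (mm10). The 10541 genes that reached 1 RPKM in 2 or more libraries were kept. With limma 3.58.1 (R 4.3.3; lmFit, eBayes with a trend), log2(RPKM + 1) was modelled as 4 group means with 4 residual degrees of freedom. Tests were two-sided, with p adjusted by Benjamini-Hochberg over the genes kept and a threshold of 0.05. The fit was tested on simulated data. Fold changes and tests are given for passing genes and, where fewer than 5 passed, for those with the smallest p up to 5. From each other list the 3 highest genes and those that passed are named. The genes and lists were chosen with earlier results of these data known. The results of 1 gene of these lists are not reported here.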

Additional observations from a re-analysis of the deposited data

Results flagged for a closer look

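The antimicrobial lectin genes Reg3b and Reg3g had genotype differences of opposite sign in the 2 tissues. The libraries of the 2 genotypes did not overlap in either tissue, and none of the 4 differences passed. All 34 genes were searched for this pattern, and these 2 had it. Its share among the genes kept was not counted, so the pattern does not set these 2 genes apart from other genes. The log2 difference of Reg3b, labelled KO minus WT, was 2.76 in PP (limma adjusted p = 0.693) and -3.15 in LP (limma adjusted p = 1). That of Reg3g was 3.49 in PP (limma adjusted p = 0.464) and -1.70 in LP (limma adjusted p = 1). The difference between tissues was tested as an interaction and did not pass for either gene. It was -5.91 ± 2.84 for Reg3b (SE, limma adjusted p = 0.640) and -5.19 ± 2.16 for Reg3g (limma adjusted p = 0.559). In PP, Reg3b stood at 0.204 and 40.7 RPKM in libraries labelled KO against 0.0339 and 0.0594 RPKM in WT, so 1 of the 2 libraries labelled KO was itself under 1 RPKM.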

How the results depend on the processing

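The log2 differences given in the report for up to 5 epithelial genes a comparison, those of the interaction included, kept their sign under each alternative that gave a value. Those of Reg3b and Reg3g were not recomputed. Still, each of the 5 passing results was lost under some. The count of passing genes for genotype in PP (38) became 76 with no filter on low values, 24 after median-of-ratios rescaling, 16 with a replicate block and 0 with only the groups compared, where the 1 passing epithelial gene became 0. For genotype in LP the count (3) became 0 with a pseudocount of 0.1, 56 with no filter, 0 with the replicate block and 0 with only the groups compared. For tissue in WT (224 genes, 2 of them epithelial) it became 99 and 1 with the replicate block and 0 and 0 with only the groups compared, and 1 epithelial gene passed with no filter. For tissue in the libraries labelled KO (211 genes, 2 epithelial) it became 74 and 0 with the block and 0 and 0 with only the groups compared, and 0 epithelial genes passed with a pseudocount of 0.1 and 1 after rescaling. The interaction (3 genes) became 36 with no filter, 1 after rescaling and 1 with the replicate block. Same-numbered libraries did not deviate together (correlations of -0.0214 to 0.0103). Such values cannot exclude a pairing, because the libraries of a group differed widely from each other. The labels read here do not say whether the shared numbers pair libraries. With only the groups compared, 2 residual degrees of freedom remain. The cause of the other shifts was not tested.

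Leaving out 1 library at a time gave 1 to 35 passing genes for genotype in PP, 0 to 4 in LP, 0 to 180 for tissue in WT, 25 to 170 in the libraries labelled KO and 0 to 6 for the interaction. The epithelial genes among them numbered 0, 0, 0 to 1, 0 to 1 and 0. The lowest counts came without either PP library labelled KO (1 each), WT LP replicate 2 (0) and PP replicate 2 labelled KO (25).

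The summed level after median-of-ratios rescaling was 975 and 996 RPKM in PP labelled KO, and with the total taken without immunoglobulin and mitochondrial genes it was 1247 RPKM in replicate 2. Median-of-ratios rescaling divided WT LP replicate 1 by 1.05 and WT PP replicate 1 by 0.829. This put the sum of WT LP replicate 1 below that of WT PP replicate 1, while WT PP replicate 2 stayed lowest. Without its highest gene the sum was 801.9 and 1191 RPKM in LP labelled KO, 1079.7 and 983 RPKM in PP labelled KO and 218 RPKM in WT PP replicate 1. At 1 RPKM or more stood 19 and 23 of the genes in LP labelled KO, 19 and 27 in WT LP, 19 and 21 in PP labelled KO and 8 and 7 in WT PP. Counting genes above 0 instead gave 32 in LP replicate 1 labelled KO, 32 in WT LP replicate 1, 31 and 33 in PP labelled KO and 31 and 33 in WT PP. A minimum of 5 RPKM gave 4 in WT PP replicate 2. Sums are listed here where they moved by at least the SD within their group, and changed counts where they changed by the largest factors. After rescaling, the median log2 difference over all genes was -0.068 for genotype in PP (0.155 as reported) and 0.164 for the interaction (-0.393 as reported). With 2 libraries a group and a median SE of 1.59 for the 31 epithelial genes, differences under several log2 units were not detectable.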

Other observations

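Among genes that reached 10 RPKM in a library, values under 1 RPKM were seldom exact zeros, and the epithelial genes were no exception. Of the 34 genes, 32 reached 10 RPKM in at least 1 library. These 32 had 109 values above 0 and under 1 RPKM, against 7 listed at 0. The 109 values had a median of 0.213% of the gene's highest library, with quartiles of 0.14% and 0.365%. Over the 9023 genes kept that reached 10 RPKM, 17810 such values had a median of 0.251%, with quartiles of 0.162% and 0.380%, against 920 listed at 0. Per the file headers, all 8 columns carry the same sequencing lane label.

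Neighbouring genes of the set were not always present together. The keratin genes Krt8 and Krt18 both reached 5 RPKM in 8 libraries. Apoa1 and Apoa4, 10.4 kb apart, both did so in 1 library and 1 of them alone in 3. Reg1 and Reg3g, 37.6 kb apart, both did so in 5 libraries, and Reg3b and Reg3g, 92.8 kb apart, in 4.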
